A study of Homo sapiens with 4 samples.

Results

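The promoters of 46 genes of DNA replication and mitosis were followed, chosen by gene name as 26 genes of the G1/S transition and S phase and 20 genes of G2 and mitosis. Their members in the data were the ATAC-seq consensus peaks within 1 kb of any annotated transcription start of a listed gene. That rule found 97 of the 139872 consensus peaks, at 45 of the 46 genes. No peak of RFC2, a clamp loader subunit, was analysed here. There were 58 peaks at G1/S genes and 39 at G2/M genes, 17 genes had 1 peak, and no gene had more than 5. Of the 97 peaks, 86 passed the filter on low counts and were tested, and the highest mean level among the 11 others was 2.94 normalised CPM (counts scaled to a library size common to all libraries).

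ATAC-seq measures open chromatin through the insertion of sequencing adaptors by a transposase. The cells were SEM, a human B cell precursor leukemia line with an MLL rearrangement, and in all of them dCas9-KRAB was expressed, a Cas9 without nuclease activity joined to a repressor domain. The guide sgFLT3-DE-1 directed it to an enhancer of FLT3 that HOXA9 binds, the controls carried the non-target guide sgNT, and each guide had 2 libraries. FLT3 is a receptor tyrosine kinase on which MLL-rearranged leukemia cells depend for growth, so the comparison asks whether promoters of proliferation genes differed in accessibility with the guide. The labels do not say whether libraries of a group came from separate cultures, so p-values measure no more than the spread among the libraries sequenced, and that spread may be technical.

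Genes of both classes are transcribed in waves along the cell cycle. In G1 the pocket protein RB holds E2F factors inactive, and cyclin E with its kinase releases them, after which E2F activates genes for the MCM helicase, DNA polymerases and nucleotide synthesis. Genes of mitosis follow in G2, when MYB-MuvB and FOXM1 act at a promoter element named the CHR (cell cycle genes homology region), commonly a short distance from CCAAT boxes bound by NF-Y. In bulk chromatin, a smaller share of cells in a phase and less accessibility per cell cannot be told apart.

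The sequences below show these elements at 4 G1/S and 4 G2/M promoters, among them TOP2A and BUB1. In the comparison described further on, these had the smallest p among the main (highest) peaks of the members. Each run is 120 bases that end just before the Ensembl canonical start, on the strand of the gene, read from GRCh37, the build of the peak table. In the first 4 runs capitals mark exact E2F words on either strand, and in the last 4 they mark CCAAT boxes on either strand and CHR words.
E2F1, chr20:32274192-32274311, minus strand: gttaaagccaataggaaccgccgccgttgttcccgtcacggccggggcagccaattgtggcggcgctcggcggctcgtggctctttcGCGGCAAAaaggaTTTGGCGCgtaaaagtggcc
MCM6, chr2:136634014-136634133, minus strand: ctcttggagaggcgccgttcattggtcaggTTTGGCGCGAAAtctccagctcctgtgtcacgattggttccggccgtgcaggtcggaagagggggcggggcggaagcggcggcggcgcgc
CDC25A, chr3:48229908-48230027, minus strand: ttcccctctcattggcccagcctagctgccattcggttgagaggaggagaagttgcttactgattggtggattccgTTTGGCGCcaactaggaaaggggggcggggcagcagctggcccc
TYMS, chr18:657533-657652, plus strand: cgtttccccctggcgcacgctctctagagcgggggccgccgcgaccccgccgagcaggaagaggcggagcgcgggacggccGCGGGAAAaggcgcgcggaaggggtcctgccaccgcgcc
CDK1, chr10:62538116-62538235, plus strand: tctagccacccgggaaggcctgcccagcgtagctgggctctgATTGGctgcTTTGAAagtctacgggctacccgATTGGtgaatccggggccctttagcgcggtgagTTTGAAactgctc
PLK1, chr16:23690090-23690209, plus strand: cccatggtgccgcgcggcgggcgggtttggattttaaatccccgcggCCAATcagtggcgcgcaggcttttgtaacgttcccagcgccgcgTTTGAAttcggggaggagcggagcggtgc
TOP2A, chr17:38574149-38574268, minus strand: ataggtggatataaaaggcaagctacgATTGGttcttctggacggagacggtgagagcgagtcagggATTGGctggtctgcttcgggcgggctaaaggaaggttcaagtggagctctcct
BUB1, chr2:111435641-111435760, minus strand: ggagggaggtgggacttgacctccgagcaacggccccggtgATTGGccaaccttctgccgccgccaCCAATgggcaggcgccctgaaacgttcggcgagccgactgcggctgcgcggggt
In MCM6 a match on each strand shares bases and forms one run, the words starting 90 and 86 bases before the start. In E2F1 the pair of words lies 33 and 20 bases before the start, in CDC25A the word lies at 44 and in TYMS at 39. CHR words of CDK1 lie 69 and 13 bases before its start, and that of PLK1 29 bases before. A further CHR word of CDK1, after its start, and those of TOP2A and BUB1 lie outside the printed bases, so TOP2A and BUB1 have only their CCAAT boxes in capitals.

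E2F words were found mostly at G1/S members and CHR words mostly at G2/M members. Windows of 300 bases, from 250 before to 50 after the canonical start, were searched on both strands for 4 E2F words, TTTCCCGC, TTTCGCGC, TTTGCCGC and TTTGGCGC. The CHR was searched as TTTGAA or, with a C in the middle, as TTCGAA. The other elements were CCAAT and the GC box, GGGCGG. The E2F words can share bases with each other on opposite strands, as in MCM6. An E2F word was found in 16 of 25 G1/S promoters (64%) and 2 of 20 G2/M promoters (10%), CDK1 and CENPA. The share was 4.38% over 19812 promoters of coding genes and 5.91% over the 10433 other coding promoters with a consensus peak over the start. A CHR word was found in 16 of 20 G2/M promoters (80%) and 3 of 25 G1/S promoters (12%), against 12.8% of all coding promoters. Both a CHR word and a CCAAT box were present in 15 of 20 G2/M promoters (75%) and 3 of 25 G1/S promoters (12%), against 5.44% of all coding promoters. CCAAT alone stood in 90% of G2/M, 76% of G1/S and 36.0% of all coding promoters, whereas the GC box stood in 70%, 72% and 61.5% of them. Over the other coding promoters with a consensus peak over the start, the shares were 10.4% for a CHR word and 37.3% for CCAAT. They were 4.57% for CHR with CCAAT and 75.4% for the GC box, the last above both member classes. These are matches of letters, and whether a factor was bound was not measured here.

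**Figure D1:**
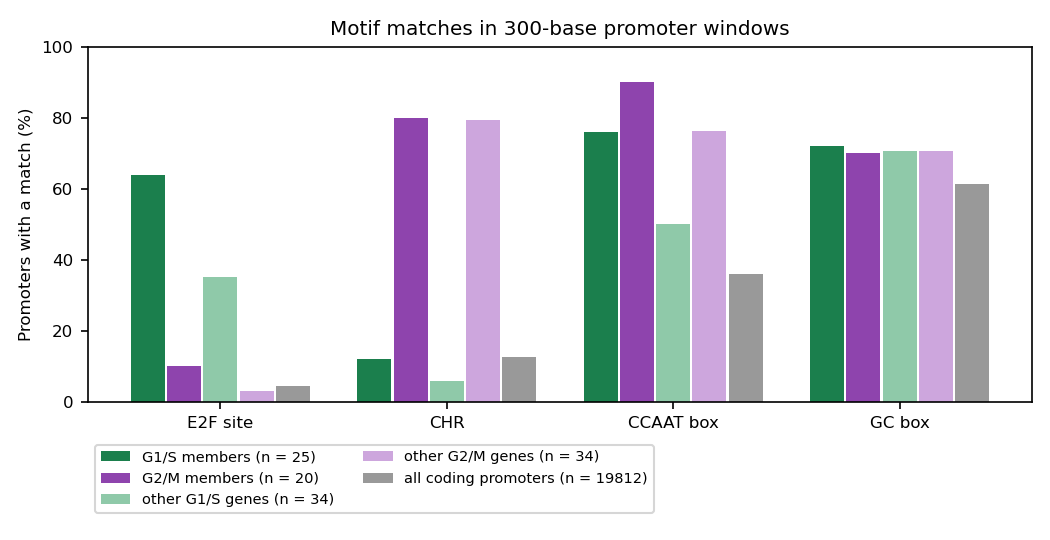
Share of promoters, in percent, with at least 1 exact match to each motif in windows of 300 bases. The bars stand for G1/S and G2/M members, other genes of the same phases, and all coding promoters. E2F words stand out in G1/S members (64%, against 4.38% of all coding promoters) and CHR words in G2/M members (80%, against 12.8%).

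A second list, of 68 other genes of the pathway, was searched in the same way. An E2F word was found in 12 of 34 other G1/S genes (35.3%) and in 1 of 34 other G2/M genes (2.94%). A CHR word was found in 27 of 34 other G2/M genes (79.4%) and in 2 of 34 other G1/S genes (5.88%). The GC box was at 70.6% in both.

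The libraries held 3670758 and 4831164 counts with sgFLT3-DE-1 and 3321429 and 2683477 counts with sgNT. Tested member peaks took 0.183% and 0.190% of the counts of the sgFLT3-DE-1 libraries and 0.207% and 0.204% of those of the sgNT libraries. At the peak that holds the guide's exact match, chr13:28842815-28843351, the levels were 66.1 and 74.7 CPM with sgFLT3-DE-1 and 126 and 140 CPM with sgNT, lower in both libraries labelled with the guide. The log2 fold change there was -0.92 (SE 0.264, unadjusted p = 0.00164 by edgeR), with an adjusted p of 1.00, so this test did not call the guide's own target peak either. Of 8 B cell precursor markers 7 had a promoter peak, CD79A being the exception, and 6 of these peaks were tested, whereas 1 of 4 T cell, 2 of 4 myeloid and 2 of 4 erythroid markers had one.

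The members were open promoters in these cells. Each gene was represented by its highest peak, whose level had a median of 26.7 CPM over the 45 genes, 26.7 CPM over G1/S genes and 23.7 CPM over G2/M genes. The highest promoter peaks of other coding genes, 11651 distinct peaks with those shared by several genes counted once, had a median of 17.4 CPM. Per kb of peak the medians were 67.3 CPM for members and 44.1 CPM for other coding genes. The per-kb level was above the median of other coding genes at 39 of 45 members, 23 of 25 in G1/S and 16 of 20 in G2/M. Median GC content of these peaks was 62.3% for members and 66.4% for other coding genes, and the ratio of observed to expected CpG was 0.907 and 0.820.

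The range within the members was wide. The highest peak was that of TTK, the spindle checkpoint kinase MPS1, with 148 and 98.8 CPM in sgFLT3-DE-1 libraries and 144 and 101 CPM in sgNT libraries. E2F3, an activating E2F factor, had 118 and 83.8 CPM with sgFLT3-DE-1 and 115 and 96.9 CPM with sgNT. MCM3, a helicase subunit, had 112 and 91.3 CPM with sgFLT3-DE-1 and 111 and 91.3 CPM with sgNT. In these 3 peaks the replicate 1 library was the higher one with either guide, and the groups overlapped.

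At the low end stood FOXM1, the transcription factor of mitotic genes, with 2.47 and 5.97 CPM with sgFLT3-DE-1 and 5.35 and 8.01 CPM with sgNT. E2F2 had 4.32 and 8.18 CPM with sgFLT3-DE-1 and 6.02 and 7.21 CPM with sgNT. AURKB, the kinase of the chromosomal passenger complex, had 7.10 and 5.53 CPM with sgFLT3-DE-1 and 7.35 and 11.6 CPM with sgNT. At AURKB both sgFLT3-DE-1 libraries were under both sgNT libraries, while the groups overlapped at FOXM1 and E2F2. Per kb of peak the order was another one, with E2F3 (241 CPM per kb), CDK1 (219) and MCM3 (217) highest and CDT1 (23.9), BUB1B (26.4) and PLK1 (31.2) lowest. The CDT1 peak used here lies 614 bases from the nearest CDT1 start.

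**Figure D2:**
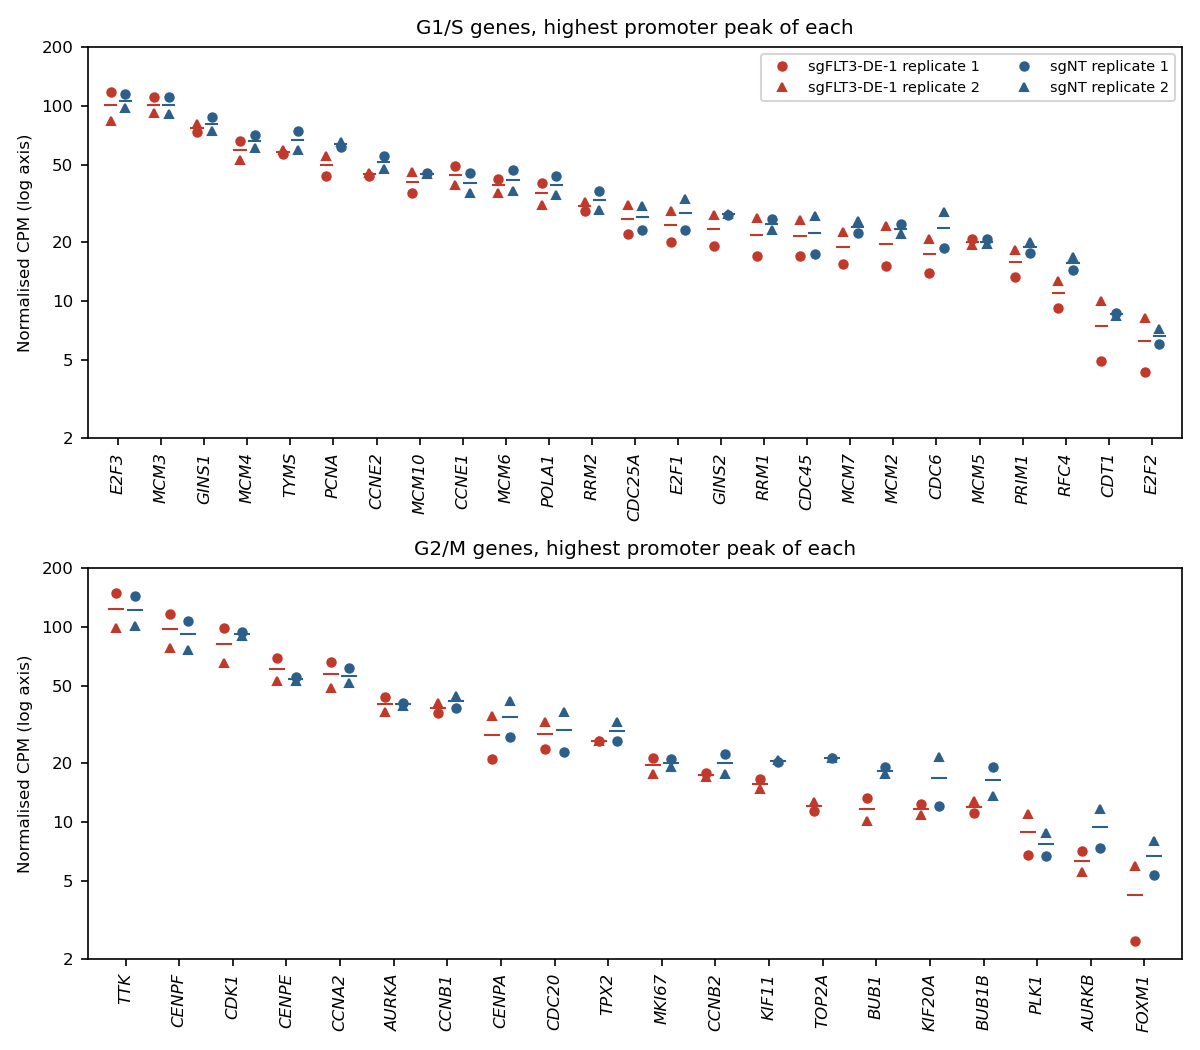
Normalised CPM (log axis) of the highest promoter peak of each of 45 genes in every library, with short bars at the group means, for G1/S genes (upper panel) and G2/M genes (lower panel), ordered by mean level. Circles are replicate 1 and triangles replicate 2. TTK, E2F3 and MCM3 lie between 83.8 and 148 CPM in all libraries and FOXM1, E2F2 and AURKB below 12 CPM, and at TOP2A and BUB1 both sgFLT3-DE-1 libraries lie under both sgNT libraries.

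No member peak differed between the guides past FDR 0.05 by edgeR's quasi-likelihood test with Benjamini-Hochberg adjustment over the 82558 tested peaks, in either direction. The smallest adjusted p of a member was 1.00. Over all tested peaks 0% were called lower and 0.00242% higher. DESeq2 and limma-voom called 0 members as well, against 0% of all tested peaks lower and 0.00121% higher by DESeq2, and 0% lower and 0.00363% higher by limma-voom. At an unadjusted p under 0.05, 3 of 86 member peaks were lower, at TOP2A, BUB1 and E2F3, and 1 was higher, at PRIM1, against 1.07% and 0.827% of all tested peaks. The PRIM1 peak passed the filter on low counts through the sgFLT3-DE-1 libraries. Of 20148 tested peaks at other coding promoters, 477 were lower and 70 higher by this criterion with edgeR. By the same criterion DESeq2 gave 1 lower, TOP2A, and 0 higher, against 0.155% and 0.0824% of all tested peaks. Limma-voom gave 4 lower and 0 higher, against 1.21% and 0.388%. With 2 libraries per guide the smallest p of an exact permutation test is 0.33, so none was run on single peaks.

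Estimates were spread around a value slightly below 0. The log2 fold change of sgFLT3-DE-1 over sgNT was below 0 at 65 of 86 member peaks (75.6%), against 48.1% of all tested peaks, 61.3% of 20148 tested peaks at other coding promoters and 85.3% of 95 peaks at ribosomal protein genes. The median was -0.17 for members, 0.01 for all tested peaks, -0.08 for other coding promoters and -0.21 for ribosomal protein promoters. At 61 of 86 peaks the estimate was within 1 standard error of 0, and at 5 it was beyond 2. The median moved to -0.34 without sgFLT3-DE-1 replicate 2, to -0.12 without sgFLT3-DE-1 replicate 1, and to -0.06 with a correction for GC content.

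Both sgFLT3-DE-1 libraries were under both sgNT libraries at 24 of 86 member peaks (27.9%), against 13.8% of all tested peaks, 22.2% of other coding promoter peaks and 28.4% of ribosomal protein promoter peaks. They were above both at 4 (4.65%), against 13.7% of all tested peaks and 8.14% of other coding promoter peaks. The share of non-overlapping lower peaks among members was thus above that of all peaks, and it stood between those of coding promoters and ribosomal protein promoters. Restricted to the peak over the canonical start, the median was -0.17 over 44 members, with 37 below 0 (84.1%), and -0.12 over 10123 other coding genes, with 70.1% below 0.

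**Figure D3:**
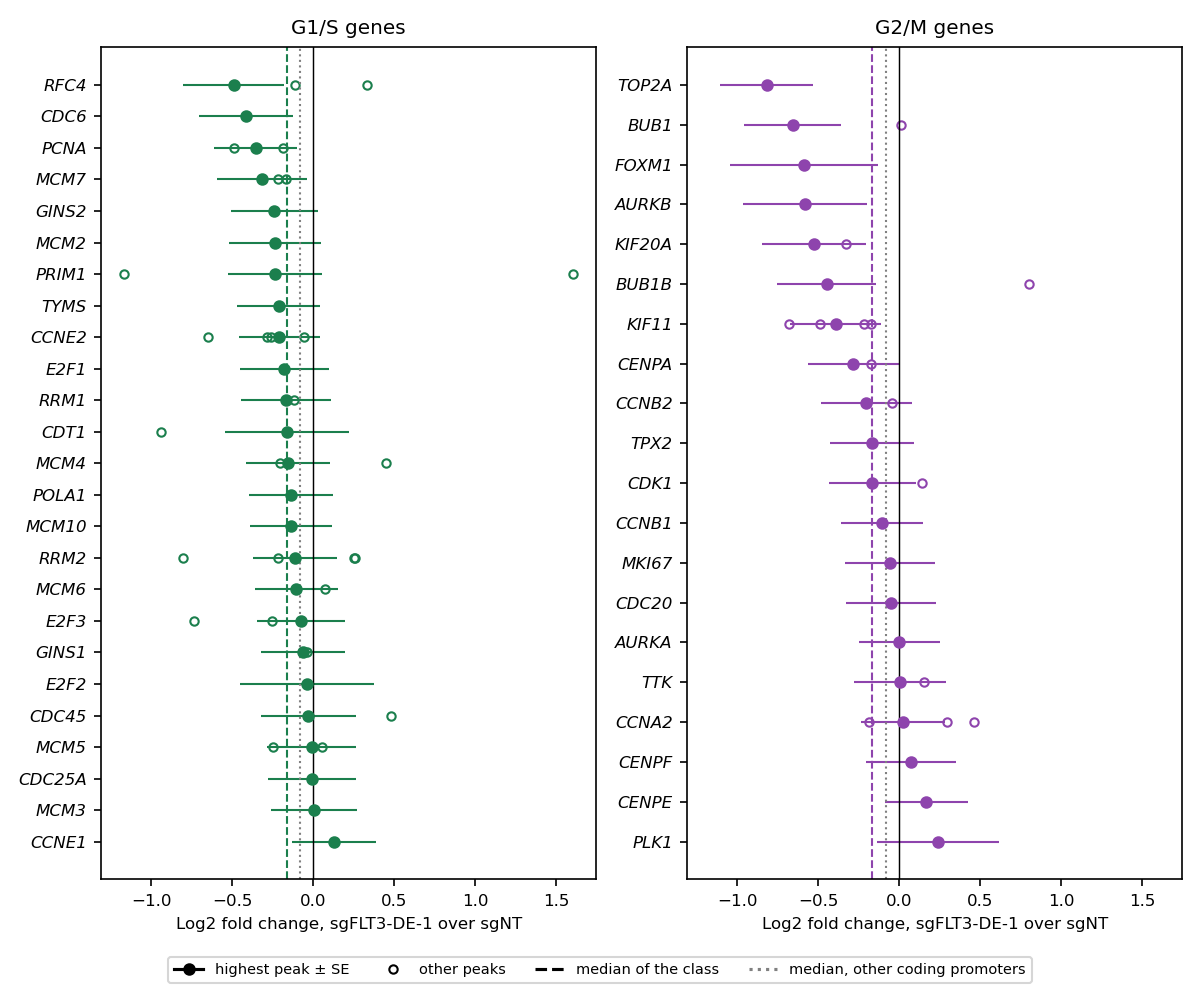
Log2 fold change of sgFLT3-DE-1 over sgNT at every tested peak of each gene, for G1/S (left) and G2/M genes (right). Filled points are the highest peak with its standard error, open points the other peaks, dashed lines the class medians (-0.16 and -0.17), and dotted lines the median of other coding promoters (-0.08). Most error bars of the highest peaks reach 0, with TOP2A (-0.82) and BUB1 (-0.66) furthest below it.

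The 6 MCM subunits form the ring of the replicative helicase, which unwinds DNA at the fork. Their 13 tested peaks had log2 fold changes between -0.32 and 0.45, with a median of -0.16. Of these 9 were below 0, against 61.3% of other coding promoter peaks. MCM2 had 15.1 and 24.1 CPM with sgFLT3-DE-1 and 24.7 and 22.0 CPM with sgNT (log2 fold change -0.24, SE 0.282), and its peak also lies at the start of TPRA1. The groups overlapped, since sgFLT3-DE-1 replicate 2 lay between the sgNT libraries, and without sgFLT3-DE-1 replicate 1 the estimate was 0.03. MCM3 was at 0.00 (SE 0.265). A small MCM4 peak, chr8:48873745-48873907, had 6.80 and 6.63 CPM with sgFLT3-DE-1 and 5.35 and 4.40 CPM with sgNT (0.45, SE 0.418). It did not overlap between groups, and it was at -0.11 when libraries were thinned to equal totals. The main MCM4 peak, shared with the start of PRKDC, overlapped, with 66.4 and 52.6 CPM with sgFLT3-DE-1 and 71.2 and 60.9 CPM with sgNT.

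Licensing and firing factors load the helicase and start it. CDC6 and CDT1 bring MCM rings to origins, and MCM10, CDC45 and the GINS subunits turn them into active forks. Of their 9 tested peaks 8 were below 0, against 61.3% of other coding promoter peaks, and the median was -0.14. The lowest was a small CDT1 peak over the canonical start, chr16:88870026-88870252, with 1.24 and 3.98 CPM with sgFLT3-DE-1 and 4.01 and 6.81 CPM with sgNT (log2 fold change -0.94, SE 0.539). It rests on few reads, 4 and 18 counts with sgFLT3-DE-1 and 12 and 17 counts with sgNT. There sgFLT3-DE-1 replicate 1 fell short of the minimum of the filter on low counts, while both sgNT libraries reached it. The CDT1 peak thus entered the test through the group where it was higher, and its estimate is not taken as a difference. GINS2 did not overlap either, with 19.2 and 27.6 CPM with sgFLT3-DE-1 and 27.7 and 28.0 CPM with sgNT. The highest peak near a GINS1 start lies at ABHD12, 16491 bases from the canonical start of GINS1, so its level need not be that of the GINS1 promoter. The highest CDT1 peak also lies off the start, 614 bases from the nearest one.

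Among genes of DNA synthesis, PCNA, the sliding clamp, had 3 tested peaks, and at each both sgFLT3-DE-1 libraries were under both sgNT libraries. The highest, chr20:5107149-5107826, which also lies at the start of CDS2, had 43.9 and 55.1 CPM with sgFLT3-DE-1 and 61.8 and 65.3 CPM with sgNT (log2 fold change -0.36, SE 0.255). The peak over the canonical start, chr20:5100562-5101005, had 33.4 and 38.0 CPM with sgFLT3-DE-1 and 39.1 and 42.4 CPM with sgNT. The third, chr20:5100022-5100311, had 14.5 and 15.5 CPM with sgFLT3-DE-1 and 21.7 and 20.4 CPM with sgNT (-0.49, SE 0.280, unadjusted p = 0.0924 by edgeR). None of the 3 passed adjustment, and peaks of 1 gene are not independent replicates. Both sgFLT3-DE-1 libraries were under both sgNT libraries at 13.8% of all tested and 22.2% of other coding promoter peaks. RFC4, a clamp loader subunit, had 9.27 and 12.6 CPM with sgFLT3-DE-1 and 14.4 and 16.8 CPM with sgNT at its highest peak, again without overlap.

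PRIM1, the catalytic subunit of primase, held the largest estimates of both signs, at 2 small peaks in the region it shares with the start of HSD17B6. The peak at chr12:57145112-57145249 had 12 and 19 counts with sgFLT3-DE-1 and 3 and 4 counts with sgNT, that is 3.71 and 4.20 CPM and 1.00 and 1.60 CPM. Its log2 fold change was 1.61 (SE 0.685, unadjusted p = 0.0262 by edgeR's quasi-likelihood test, adjusted p = 1.00). The peak passed the filter on low counts through the sgFLT3-DE-1 libraries. The peak at chr12:57145608-57145706 had 6 and 7 counts with sgFLT3-DE-1 and 11 and 10 counts with sgNT (-1.17, SE 0.651). That peak passed the filter through the sgNT libraries. Each of these 2 peaks thus entered the test through the group where it was higher, so neither estimate is taken as a difference. The main PRIM1 peak overlapped between groups, with 13.3 and 18.4 CPM with sgFLT3-DE-1 and 17.7 and 20.02 CPM with sgNT.

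RRM1 and RRM2 are the subunits of ribonucleotide reductase and TYMS makes thymidylate. Below 0 were 6 of their 8 tested peaks, against 61.3% of other coding promoter peaks. A small RRM2 peak, chr2:10260717-10260854, had 4.02 and 5.97 CPM with sgFLT3-DE-1 and 9.69 and 8.01 CPM with sgNT (log2 fold change -0.80, SE 0.395, unadjusted p = 0.0518). The main RRM2 peak had 29.0 and 32.1 CPM with sgFLT3-DE-1 and 36.8 and 29.2 CPM with sgNT and overlapped. TYMS had 56.5 and 59.3 CPM with sgFLT3-DE-1 and 74.5 and 59.7 CPM with sgNT, which did not overlap by a narrow margin in sgNT replicate 2.

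E2F factors, cyclin E and the phosphatase CDC25A drive the G1/S transition, and 11 of their 12 tested peaks were below 0, with a median of -0.19. CCNE2 and E2F3 gave several of these peaks. With only the main peak of each of the 6 genes, 5 were below 0 and the median was -0.06. Of other coding promoter peaks 61.3% were below 0, with a median of -0.08. A small peak of E2F3, chr6:20403164-20403247, had 5.87 and 7.08 CPM with sgFLT3-DE-1 and 11.7 and 10.0 CPM with sgNT (log2 fold change -0.74, SE 0.359, unadjusted p = 0.0497, adjusted p = 1.00 by edgeR). The main E2F3 peak was at -0.07 (SE 0.270). E2F1, the founding member of the family, had 20.1 and 29.0 CPM with sgFLT3-DE-1 and 23.1 and 33.2 CPM with sgNT (-0.18, SE 0.276), and in it the libraries numbered 1 were the lower ones with either guide. E2F2 was at -0.04 (SE 0.415).

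The 2 cyclin E genes differed in sign. CCNE1 had 49.4 and 39.4 CPM with sgFLT3-DE-1 and 45.1 and 35.6 CPM with sgNT, with overlap (log2 fold change 0.13, SE 0.258). CCNE2 had 5 tested peaks, all below 0, and at 4 of them both sgFLT3-DE-1 libraries were under both sgNT libraries. The lowest, chr8:95908406-95908600, had 6.18 and 8.18 CPM with sgFLT3-DE-1 and 12.4 and 10.4 CPM with sgNT (-0.65, SE 0.352), and 4 of the 5 peaks also lie near a start of NDUFAF6. Neighbouring peaks of 1 gene are not independent replicates. Non-overlapping lower peaks were 13.8% of all tested and 22.2% of other coding promoter peaks. The difference between the cyclin E genes was not tested.

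Cyclins A2, B1 and B2 activate CDK1, the kinase of mitotic entry, and FOXM1 activates their transcription. Their 10 tested peaks had a median log2 fold change of -0.08, with 6 below 0, against 61.3% of other coding promoter peaks. CDK1 had 98.5 and 65.5 CPM with sgFLT3-DE-1 and 93.9 and 89.3 CPM with sgNT (-0.17, SE 0.269). CCNB1 had 36.1 and 40.5 CPM with sgFLT3-DE-1 and 38.4 and 44.4 CPM with sgNT (-0.11, SE 0.252). Both genes overlapped between groups, and the sgFLT3-DE-1 libraries of CDK1 spanned the sgNT libraries. FOXM1 was at -0.59 (SE 0.458) on 8 and 27 counts with sgFLT3-DE-1 and 16 and 20 counts with sgNT. Its peak passed the filter on low counts through the sgNT libraries, where it was higher, so this estimate is not taken as a difference either. A small CCNA2 peak, chr4:122744616-122744810, had 8.65 and 8.40 CPM with sgFLT3-DE-1 and 6.35 and 6.01 CPM with sgNT (0.46, SE 0.379), without overlap.

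TOP2A, the topoisomerase that untangles sister chromatids, had the smallest p of the members. Its only peak, chr17:38574113-38574474, covers the start and had 37 and 57 counts with sgFLT3-DE-1 and 64 and 53 counts with sgNT, which scaled to 11.4 and 12.6 CPM with sgFLT3-DE-1 and 21.4 and 21.2 CPM with sgNT. The mean was 12.02 ± 0.831 CPM with sgFLT3-DE-1 and 21.3 ± 0.120 CPM with sgNT (SD, n = 2 libraries each), so the level with the guide was 56.4% of that with sgNT, and the groups did not overlap. An SD from 2 libraries with 64 and 53 counts is a poor measure of the spread. The log2 fold change was -0.82 (SE 0.288, unadjusted p = 0.00816 by edgeR's quasi-likelihood test), and the adjusted p over all tested peaks was 1.00. When each library was left out in turn the estimate lay between -0.91 and -0.76. MKI67, which coats mitotic chromosomes and marks proliferating cells, had 21.3 and 17.7 CPM with sgFLT3-DE-1 and 21.1 and 19.2 CPM with sgNT (-0.06, SE 0.276), and the groups overlapped.

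Mitotic kinases gave estimates of both signs. PLK1, which acts at centrosomes and kinetochores, had 6.80 and 11.1 CPM with sgFLT3-DE-1 and 6.68 and 8.81 CPM with sgNT (log2 fold change 0.24, SE 0.375), with overlap. AURKB was at -0.58 (SE 0.383), without overlap, and AURKA, the kinase of spindle poles, had 43.6 and 36.7 CPM with sgFLT3-DE-1 and 40.8 and 39.2 CPM with sgNT, with overlap.

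BUB1, BUB1B and TTK belong to the spindle checkpoint, and CDC20 is the activator that the checkpoint restrains. BUB1 had 13.3 and 10.2 CPM with sgFLT3-DE-1 and 19.1 and 17.6 CPM with sgNT at chr2:111435602-111435838, the peak over its start. The groups did not overlap, and the log2 fold change was -0.66 (SE 0.300, unadjusted p = 0.0366 by edgeR, adjusted p = 1.00). With each library left out in turn it lay between -0.86 and -0.48, with unadjusted p from 0.0146 to 0.191. Another BUB1 peak, 11.9 CPM on average with sgFLT3-DE-1 and 12.1 CPM with sgNT, overlapped. BUB1B did not overlap at its main peak, with 11.1 and 12.8 CPM with sgFLT3-DE-1 and 19.1 and 13.6 CPM with sgNT. At a small BUB1B peak also near a start of PAK6, chr15:40509458-40509661, the levels were 2.16 and 5.31 CPM with sgFLT3-DE-1 and 1.34 and 3.20 CPM with sgNT (0.80, SE 0.630), with overlap. TTK was at 0.01 (SE 0.284), and CDC20 had 23.8 and 32.5 CPM with sgFLT3-DE-1 and 22.7 and 36.4 CPM with sgNT, with overlap.

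Centromere and spindle proteins had 12 tested peaks, of which 10 were below 0, with a median of -0.25. With only the main peak of each of the 6 genes, 4 were below 0 and the median was -0.23. Of other coding promoter peaks 61.3% were below 0. KIF11, the motor that separates spindle poles, had 16.7 and 14.8 CPM with sgFLT3-DE-1 and 20.4 and 20.8 CPM with sgNT at its main peak. KIF11 had 5 tested peaks, and at 3 of them both sgFLT3-DE-1 libraries were under both sgNT libraries, 2 of these 3 also lying near a start of IDE. Among all tested peaks 13.8%, and among other coding promoter peaks 22.2%, were lower in that way. The smallest of these KIF11 peaks, chr10:94334514-94334602, had 3 and 16 counts with sgFLT3-DE-1 and 11 and 10 counts with sgNT. It passed the filter on low counts through the sgNT libraries, where it was higher. TPX2, a spindle assembly factor, had 25.9 and 25.9 CPM with sgFLT3-DE-1 and 26.1 and 32.4 CPM with sgNT. CENPE, a kinetochore motor, had 68.9 and 52.8 CPM with sgFLT3-DE-1 and 55.1 and 52.9 CPM with sgNT, and CENPF, a kinetochore protein, had 116 and 78.3 CPM with sgFLT3-DE-1 and 108 and 76.1 CPM with sgNT. The groups overlapped at CENPE and CENPF.

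Between the classes, the medians of the log2 fold change were -0.16 over 52 G1/S peaks and -0.17 over 34 G2/M peaks. The difference, G1/S minus G2/M, was 0.004, and it was not tested. Between replicate libraries the class difference in median log2 CPM had an SD of 0.21. That is another measure than a median of log2 fold changes, so the 0.004 cannot be judged by it. Estimates were below 0 at 42 of 52 G1/S peaks (80.8%) and 23 of 34 G2/M peaks (67.6%). Non-overlapping lower peaks numbered 16 in G1/S (30.8%) and 8 in G2/M (23.5%), against 13.8% of all tested and 22.2% of other coding promoter peaks. Non-overlapping higher peaks numbered 3 (5.77%) and 1 (2.94%), against 13.7% and 8.14%. Over peaks, of which up to 5 come from 1 gene, the G2/M estimates ran over a wider middle range, from a lower quartile of -0.38 to an upper quartile of 0.02, against -0.25 to -0.04 for G1/S. The G2/M median was -0.06 when peaks near a start of another coding gene were left out, and the G1/S median was then -0.14. Without sgFLT3-DE-1 replicate 2 the medians were -0.35 for G1/S and -0.31 for G2/M, and without sgFLT3-DE-1 replicate 1 that of G1/S was -0.09.

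Estimates at promoters moved with base composition. Over other coding promoter peaks the median log2 fold change was 0.05 at 40 to 45% GC, -0.07 at 60 to 65% and -0.16 at 75 to 80%. The members had a median GC content of 63.3%, with 66.3% for G1/S and 60.5% for G2/M peaks. Set against the median of coding promoters in its own 5-point bin of GC content, the median member lay at -0.07, and 53 of 86 lay below their bin. The values were -0.07 with 34 of 52 below for G1/S and -0.03 with 19 of 34 below for G2/M.

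The libraries differed in this respect. Relative to the mean of the 4 libraries, all tested peaks at 75 to 80% GC had a median log2 CPM of -0.16 and 0.00 in the sgFLT3-DE-1 libraries numbered 1 and 2, and 0.11 and 0.08 in the sgNT libraries numbered 1 and 2. At 35 to 40% GC they had 0.09 and -0.01 in the sgFLT3-DE-1 libraries and 0.03 and -0.03 in the sgNT libraries. In a fit with each library corrected for GC content, the member median was -0.06 with 53 of 86 below 0, against 0.00 for other coding promoters and -0.17 for ribosomal protein promoters. The class medians were then -0.06 for G1/S and -0.03 for G2/M. TOP2A was at -0.83 (SE 0.271, unadjusted p = 0.00404) and BUB1 at -0.56 (SE 0.290, unadjusted p = 0.0627) in that fit, both with an adjusted p of 1.00 by edgeR. The part of GC content in the member estimates was not tested further.

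**Figure D4:**
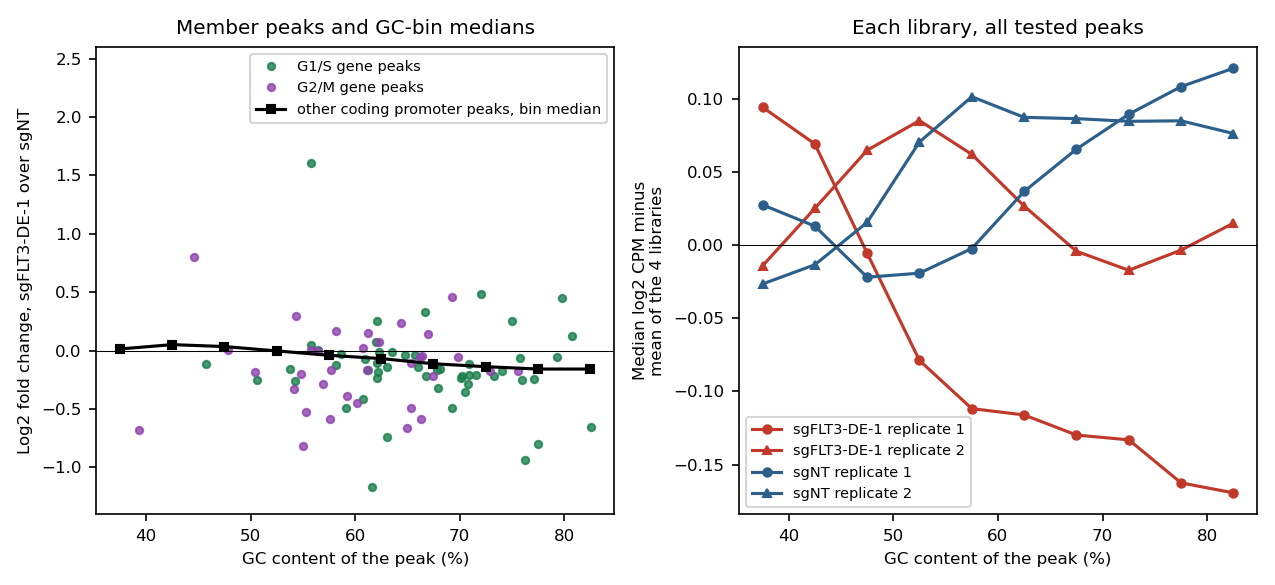
Left, log2 fold change of sgFLT3-DE-1 over sgNT of member peaks against their GC content in percent, with squares for the median of other coding promoter peaks in 5-point bins, which goes from 0.05 at 40 to 45% to -0.16 at 75 to 80%. Right, median log2 CPM of all tested peaks per bin in each library relative to the mean of the 4 libraries, where sgFLT3-DE-1 replicate 1 lies lowest above 50% GC.

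The order of libraries at member peaks followed that of other promoters in part. Among the 86 tested member peaks the lowest library was sgFLT3-DE-1 replicate 1 at 47 and sgFLT3-DE-1 replicate 2 at 22, against sgNT replicate 1 at 9 and sgNT replicate 2 at 8. In other coding promoter peaks the sgFLT3-DE-1 libraries numbered 1 and 2 were lowest at 41.4% and 22.4%, and the sgNT libraries at 17.8% and 18.4%. Estimates also went with level. The 15 members with the highest main peaks had a median log2 fold change of -0.07, with 9 below 0, the 15 in the middle -0.17, with 15 below 0, and the 15 lowest -0.39, with 14 below 0. When all tested member peaks were put in 4 bins of level, low to high, with an equal number of other coding promoter peaks in each, the medians were -0.12, -0.17, -0.22 and -0.13 for members and -0.01, -0.07, -0.12 and -0.09 for other coding promoters, without such an order.

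At the peak over the canonical start, the median log2 fold change was -0.16 for 15 G1/S members with an E2F word and -0.17 for 9 without. It was -0.19 for 16 G2/M members with a CHR word and -0.04 for 4 without. Over other coding genes it was -0.17 for 596 promoters with an E2F word and -0.12 for 9527 without, and -0.11 for 1031 with a CHR word and -0.12 for 9092 without. The G2/M peaks also differed in level, with a median of 19.3 CPM with a CHR word and 48.3 CPM without. No test was run on the medians of log2 fold change.

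The 68 other genes of the pathway had a tested peak at 67, with 117 peaks in all. None passed FDR 0.05 in either direction by edgeR, DESeq2 or limma-voom. At an unadjusted p under 0.05, 3 were lower and 0 higher by edgeR, against 1.07% and 0.827% of all tested peaks. Of 20148 other coding promoter peaks, 477 were lower and 70 higher by edgeR. Among the 117, DESeq2 gave 1 lower and 0 higher, against 0.155% and 0.0824% of all tested peaks. Limma-voom gave 3 and 0, against 1.21% and 0.388%. Estimates were below 0 at 79 of 117 (67.5%), with a median of -0.10, and groups did not overlap at 31 lower (26.5%) and 7 higher peaks (5.98%), against 13.8% and 13.7% of all tested and 22.2% and 8.14% of other coding promoter peaks. The 3 lower peaks by edgeR were 1 of NUSAP1, a microtubule-binding spindle protein, and 2 of UHRF1, which directs maintenance of DNA methylation. That NUSAP1 peak had 5.56 and 7.52 CPM with sgFLT3-DE-1 and 11.0 and 18.0 CPM with sgNT (log2 fold change -1.11, SE 0.355), without overlap. A larger NUSAP1 peak had 17.9 and 27.0 CPM with sgFLT3-DE-1 and 24.4 and 27.6 CPM with sgNT (-0.19, SE 0.274), with overlap. The lower of the UHRF1 peaks had 3.09 and 4.42 CPM with sgFLT3-DE-1 and 7.35 and 9.21 CPM with sgNT (-1.10, SE 0.423), without overlap. It passed the filter on low counts through the sgNT libraries, where it was higher, so this estimate is not taken as a difference. Corrected for GC content, the other genes had a median of -0.02, with 64 of 117 below 0.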

How the data were processed

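ATAC-seq was measured in 4 libraries of SEM cells, 2 with sgFLT3-DE-1 and 2 with sgNT, grouped by the labels. The deposited values are raw counts of reads in each consensus peak, and the authors also deposited the peak positions, on hg19 (GRCh37). Sources differ on how they were made. The extract protocol names cutadapt 1.18 and Bowtie2 2.2.9, and the submitters' processing notes name MACS2 2.1.1.20160309, bedtools 2.24.0, SAMtools 1.2, BWA, cutadapt and Trim Galore 0.4.4. A shift of reads for the offset of the transposase was not given in the sources used here. Peaks were called in the libraries that were compared, so a peak open with either guide enters the table.

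Peaks were linked to GENCODE 44 starts on GRCh37. The test was the quasi-likelihood test of edgeR 4.0.16 in R 4.3.3, after filterByExpr (minimum count 10, minimum total 15) and with TMM factors, which also scale the CPM, and no covariate. P-values of all 82558 peaks tested were adjusted together (Benjamini-Hochberg, FDR 0.05), and SE is the log2 fold change divided by the root of F. Alternatives used DESeq2 1.42.0, limma-voom (limma 3.58.1), other scalings and filters, a correction for GC content (loess, span 0.3), the replicate number as a block, thinning, other windows and each library left out. Depth was 2683477 to 4831164 counts per library, and intervals were not drawn for single libraries.

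The members and gene lists were chosen with earlier results of these data known. Values in every library are given, by rule, for the 8 lower and 4 higher member peaks of smallest p, the 3 highest and 3 lowest main peaks, and TOP2A, BUB1, CDK1, CCNB1, PLK1, MKI67, MCM2, PCNA, E2F1 and CCNE1. Further members that illustrate a role, and the genes with printed sequences, were chosen after their values were seen. Medians over members describe them and are not tests.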

Additional observations from a re-analysis of the deposited data

How the results depend on the processing

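No member peak passed FDR 0.05 by edgeR, DESeq2 or limma-voom, nor under any of the 21 alternatives, and the member median stayed below 0 under all 21. Leaving out each library gave member medians from -0.34 to -0.12, member minus coding promoter medians from -0.15 to -0.057, and G2/M medians from -0.31 to -0.12, the lowest value being that without sgFLT3-DE-1 replicate 2 in each case. The G2/M median was -0.031 with the GC correction, -0.052 with GC correction and replicate block, -0.23 with no filter, -0.10 at a mean count of 50 or more, -0.10 after thinning and -0.056 with starts of other coding genes left out. Member minus coding promoter was -0.050 with GC correction and replicate block and -0.036 with shared starts left out. Below 0 were 34 of 48 peaks at a mean count of 50 or more, 38 of 45 main peaks, 42 of 60 without shared starts and 38 of 45 peaks nearest the canonical start, the last a choice made after seeing the data, each over fewer peaks than the 86.

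Some estimates changed sign, most of them within 1 standard error of 0. With no filter MCM3 was at -0.060 and TTK at -0.057, after thinning the small MCM4 peak, at 0.45 without thinning, was at -0.11, and with the GC correction E2F2 was at 0.038, E2F3 at 0.015, CCNB1 at 0.0012 and MKI67 at 0.091. With GC correction and replicate block E2F2 was at 0.015 and MKI67 at 0.11. Over the fits without 1 library, the range was -0.053 to 0.30 for CCNE1, -0.49 to 0.095 for CDK1, -0.48 to 0.075 for E2F1, -0.61 to 0.31 for E2F2, -0.35 to 0.14 for E2F3, -0.64 to 0.032 for MCM2, -0.16 to 0.14 for MCM3, -0.20 to 0.069 for MKI67, -0.18 to 0.52 for PLK1 and -0.32 to 0.28 for TTK. The cause was not tested. A lone library was assumed to vary like the other group.

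The libraries share only a replicate number, and the labels do not say what it marks. Same-numbered libraries deviated together (r = 0.397 over peaks). Log2 CPM correlated more between same-numbered libraries across guides (r = 0.915 and 0.922) than between replicates of sgFLT3-DE-1 (0.875) or of sgNT (0.887). The main test held no term for the replicate number. With the replicate number as a block the member median was -0.18, 65 peaks were below 0 and no member passed. Among all tested peaks 17 then passed as higher and 57 as lower, against 2 and 0 without the block. The counts of higher and lower calls over all peaks were 12 and 8 with GC correction and replicate block, 5 and 1 with loess offsets, 5 and 0 with no filter, 3 and 0 with limma-voom and 1 and 0 with DESeq2, and the fits without 1 library gave 0 to 7 higher and 0 to 2 lower. With 2 libraries a group and standard errors of 0.25 or more at member peaks, differences of the size of the member median could not be resolved at single peaks.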
